A study of Sus scrofa with 12 samples.

Results

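The effect of dietary fiber on the endometrial transcriptome was taken over both levels of N-carbamylglutamate (NCG), as the mean of the 2 high-fiber groups minus the mean of the 2 low-fiber groups in a model that kept NCG as a second factor. All 12 of the 12 libraries of the series entered this comparison, 6 on the high-fiber side and 6 on the low-fiber side. The animals were Landrace × Yorkshire sows, and the diets were fed from breeding over a gestation of 114 days, after which endometrium was taken. Fiber was raised with soybean bran and beet pulp, so the diets differed in ingredients as well as in crude fiber.

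The low-fiber (LF) side held L − N, with 3.73% crude fiber and no NCG, and L + N, with 3.73% crude fiber and 0.05% NCG. The high-fiber (HF) side held H − N, with 7.46% crude fiber and no NCG, and H + N, with 7.46% crude fiber and 0.05% NCG. Each of the 4 groups had 3 libraries of poly(A) RNA, and nothing in the labels says that replicates are separate sows, so p-values measure the spread between these libraries. In bulk tissue such as this, fewer cells of a type and less RNA per cell cannot be told apart.

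Dietary fiber escapes digestion in the small intestine and is fermented in the hindgut to short-chain fatty acids, and it binds bile acids, which are made from cholesterol. NCG is a stable analog of N-acetylglutamate, the activator of the first step of the urea cycle, and is fed to raise arginine synthesis. The endometrium is the inner lining of the uterus, made of luminal and glandular epithelium over a stroma rich in collagen, vessels and immune cells, and in the pregnant sow its epithelium lies against the fetal membranes without being invaded by them.

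Total counts ranged from 14369781 to 19309724 per library, and 15351 of 20674 genes passed the filter on low counts. The stromal genes were abundant in every library, with fibroblast markers summing to between 24503 and 52609 CPM, which are reads scaled to a common library size. Luminal and glandular epithelium markers summed to between 1107 and 2548 CPM, so both main compartments of the labelled tissue were present. L − N replicate 1 lay apart from the other L − N libraries, at -22.6 on the first principal component against -67.2 and -65.5, while the other 9 libraries lay between 1.06 and 28.2. H − N replicate 3 lay apart on the second component, at 49.9.

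The number of genes that differed with fiber over both NCG levels depended on the method. In the factorial fit with interaction, differential expression required a log2 fold change beyond 1 and an adjusted p-value under 0.05 (edgeR's quasi-likelihood test, Benjamini-Hochberg), and 4 of 15351 genes, 0.0261%, met both. NELL1 was higher on the high-fiber diets, and CTHRC1, PAMR1 and NBL1 were lower. By the adjusted p-value alone 8 genes passed, 0.0521% of those tested, with RGS5, VIM, EDN1 and SLC6A6 added on the lower side. This made 1 higher gene (0.00651%) and 7 lower genes (0.0456%). The count of genes that met both thresholds, 4 in this fit, was 290 with DESeq2 and 302 with limma-voom and sample quality weights. By the same thresholds that count was 1 with limma-voom alone and 0 in an additive fit of fiber and NCG. It also depended on single libraries. Leaving out replicate 1, 2 or 3 of L − N gave 331, 1 and 3 genes, and leaving out those of L + N gave 0, 0 and 2. For H − N the counts were 0, 0 and 8, and for H + N they were 3, 58 and 0.

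Fiber took 16.2% of the variation of log2 CPM over all tested genes, NCG 15.5%, their interaction 11.0% and the spread within groups 57.2%. The spread within groups holds 8 degrees of freedom, and each of the other terms takes a share even without any effect. At a looser adjusted p-value of 0.1, 497 genes, 3.24%, passed, of which 160 were higher and 337 lower on the high-fiber diets. At an unadjusted p-value under 0.05, 1428 genes (9.3%) were higher and 1566 (10.2%) were lower.

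**Figure D1:**
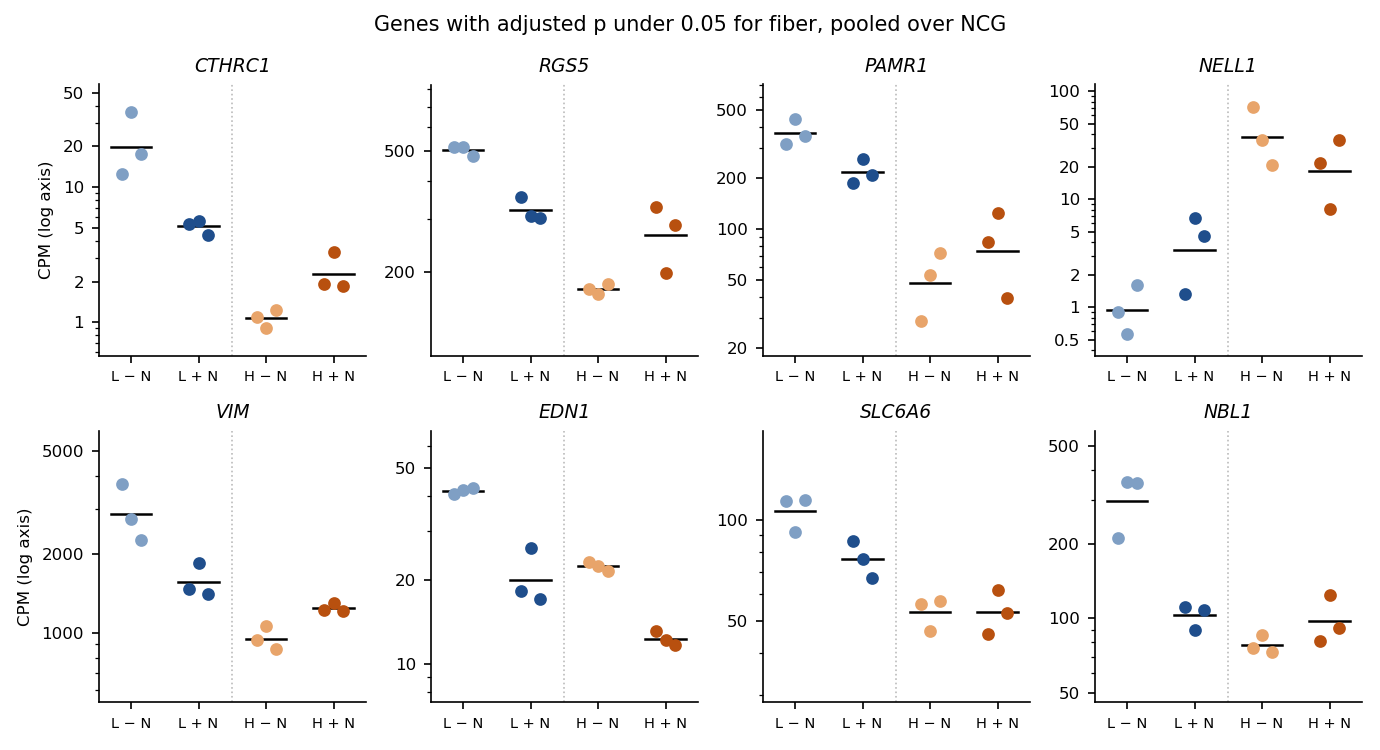
Expression of the 8 genes with an adjusted p-value under 0.05 for fiber, in CPM on a log axis, with 1 point per library, the 4 groups side by side and a bar at the geometric mean of each group. NELL1 is the gene that lies higher in H − N and H + N, and the other 7 lie lower, with the widest gap between L − N and H − N for CTHRC1.

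CTHRC1 encodes a secreted glycoprotein of remodelling matrix that acts on collagen deposition and Wnt signaling. Its gene lies on chromosome 4 of Sscrofa11.1, from 33759541 to 33771625 on the minus strand. Expression was 12.5, 35.9 and 17.5 CPM in L − N and 5.34, 5.65 and 4.45 CPM in L + N. It was 1.09, 0.902 and 1.24 CPM in H − N and 1.91, 3.31 and 1.84 CPM in H + N. Every high-fiber library lay below every low-fiber library, and the log2 fold change was -2.73 ± 0.285 (SE, n = 6 against 6, adjusted p = 0.0141, edgeR's quasi-likelihood test). The log2 fold change was -4.34 without NCG and -1.12 with NCG.

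NELL1 encodes a secreted glycoprotein with roles in osteogenic differentiation, and it is a long gene on chromosome 2, from 37809080 to 38754520 on the minus strand. It was near the lower end of detection in L − N, at 0.891, 0.564 and 1.61 CPM, where the lowest library held 9 reads. In L + N it was 1.31, 6.70 and 4.51 CPM. It reached 72.3, 35.4 and 21.0 CPM in H − N and 21.8, 8.04 and 35.0 CPM in H + N. The sides did not overlap, and the log2 fold change was 3.88 ± 0.521 (SE, n = 6 against 6, adjusted p = 0.0343, edgeR), with 5.39 in the absence of NCG and 2.38 in its presence.

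PAMR1, a secreted peptidase-domain protein first described in regenerating muscle, lies on chromosome 2 from 25422390 to 25591615 on the plus strand. It overlaps FJX1 on the opposite strand, and since the sources used here do not say whether counting used the strand, its reads may include those of FJX1. Expression was 317, 443 and 353 CPM in L − N and 187, 260 and 208 CPM in L + N, against 28.8, 53.7 and 72.3 CPM in H − N and 84.0, 125 and 39.6 CPM in H + N. The log2 fold change was -2.12 ± 0.282 (SE, n = 6 against 6, adjusted p = 0.0343, edgeR), and all high-fiber libraries lay below all low-fiber libraries. It was -2.85 without NCG and -1.40 with it.

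NBL1, a secreted antagonist of bone morphogenetic proteins on chromosome 6 from 78046084 to 78071609 on the plus strand, differed mainly in L − N. Expression was 212, 358 and 352 CPM in L − N, while L + N (112, 90.2 and 109 CPM) lay within the range spanned by H − N (75.6, 85.5 and 73.2 CPM) and H + N (80.9, 124 and 91.4 CPM). The pooled log2 fold change was -1.02 ± 0.150 (SE, n = 6 against 6, adjusted p = 0.0487, edgeR), made of -1.97 without NCG and -0.07 with NCG. The sides overlapped.

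Of the 4 genes that passed by adjusted p-value alone, VIM, EDN1, RGS5 and SLC6A6, each fell by less than a log2 unit. VIM, the intermediate filament of mesenchymal cells, was 3725, 2732 and 2269 CPM in L − N, 1473, 1860 and 1412 CPM in L + N, 934, 1058 and 862 CPM in H − N and 1222, 1295 and 1213 CPM in H + N. Its high-fiber libraries lay below all low-fiber ones, with a log2 fold change of -0.98 ± 0.132 (SE, n = 6 against 6, adjusted p = 0.0343, edgeR). The stromal fibroblast markers, a list that includes VIM, had a median of 0.06 over 12 members, and -0.01 to 0.11 with 1 library left out. At an unadjusted p-value under 0.05 in edgeR, 3 of them were higher and 3, with VIM among them, were lower.

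EDN1, the precursor of the vasoconstrictor endothelin-1, had the largest interaction p-value of the 8, 0.461 unadjusted in edgeR. It was 40.5, 41.8 and 42.5 CPM in L − N and 23.2, 22.4 and 21.6 CPM in H − N, and it was 18.2, 26 and 17.1 CPM in L + N and 13.2, 12.2 and 11.7 CPM in H + N. Within each NCG level the high-fiber libraries lay below the low-fiber ones, although H − N lay above part of L + N. The log2 fold changes were -0.89 without and -0.72 with NCG, and the pooled value was -0.81 ± 0.111 (SE, n = 6 against 6, adjusted p = 0.0343, edgeR).

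RGS5, a regulator of G-protein signaling that marks pericytes, was 518, 517 and 483 CPM in L − N, 352, 306 and 302 CPM in L + N, 177, 170 and 182 CPM in H − N and 328, 198 and 285 CPM in H + N. Its log2 fold change was -0.88 ± 0.114 (SE, n = 6 against 6, adjusted p = 0.0343, edgeR), with -1.52 without NCG and -0.24 with it, and L + N and H + N overlapped. SLC6A6, the taurine transporter, was 113, 92.0 and 115 CPM in L − N, 86.6, 76.3 and 67.1 CPM in L + N, 55.9, 46.5 and 57.1 CPM in H − N and 45.7, 61.7 and 52.9 CPM in H + N. The sides of SLC6A6 did not overlap, and its log2 fold change was -0.76 ± 0.107 (SE, n = 6 against 6, adjusted p = 0.0352, edgeR).

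An exact two-sided permutation test of the fiber labels within NCG levels, with 400 arrangements, gave its smallest possible p of 0.005 for CTHRC1, PAMR1, NELL1, VIM, EDN1 and SLC6A6. It gave p = 0.02 for RGS5 and p = 0.04 for NBL1 in the same exact permutation test. These genes were chosen by their difference in the same libraries, so the exact values describe the separation of the libraries and are no further support.

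The 2 NCG levels share no library, which lets the fiber effect be set side by side in separate libraries. Without NCG, 446 genes, 2.91%, were differentially expressed between H − N and L − N, 137 higher (0.892%) and 309 lower (2.01%). With NCG, edgeR called none between H + N and L + N, where 719 genes (4.68%) had an unadjusted p-value under 0.05 and DESeq2 called 2. No gene passed the test of the interaction itself, with a smallest adjusted p of 0.182 in edgeR, 1967 genes (12.8%) at an unadjusted p-value under 0.05 and 184 called by DESeq2. Leaving out replicate 1, 2 or 3 of L − N changed the 446 genes to 1120, 122 and 6, and leaving out those of H − N to 0, 165 and 159. The interaction count was 346 with L − N replicate 1 left out and 1 with H − N replicate 3 left out. Among the 8 genes, the unadjusted interaction p-value in edgeR was smallest for NBL1, at 4.6e-05.

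Over all tested genes, the log2 fold changes without and with NCG had the same sign in 8530 of 15351 genes (55.6%), with Pearson's r = 0.196 and Spearman's rho = 0.173 across genes, which are not independent replicates. Of the 309 genes called lower without NCG, 247 (79.9%) were also lower with NCG, with medians of -1.49 and -0.20. Of the 137 called higher, 81 (59.1%) were also higher with NCG, with medians of 1.66 and 0.10. The median absolute log2 fold change was 0.284 without NCG and 0.166 with it.

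**Figure D2:**
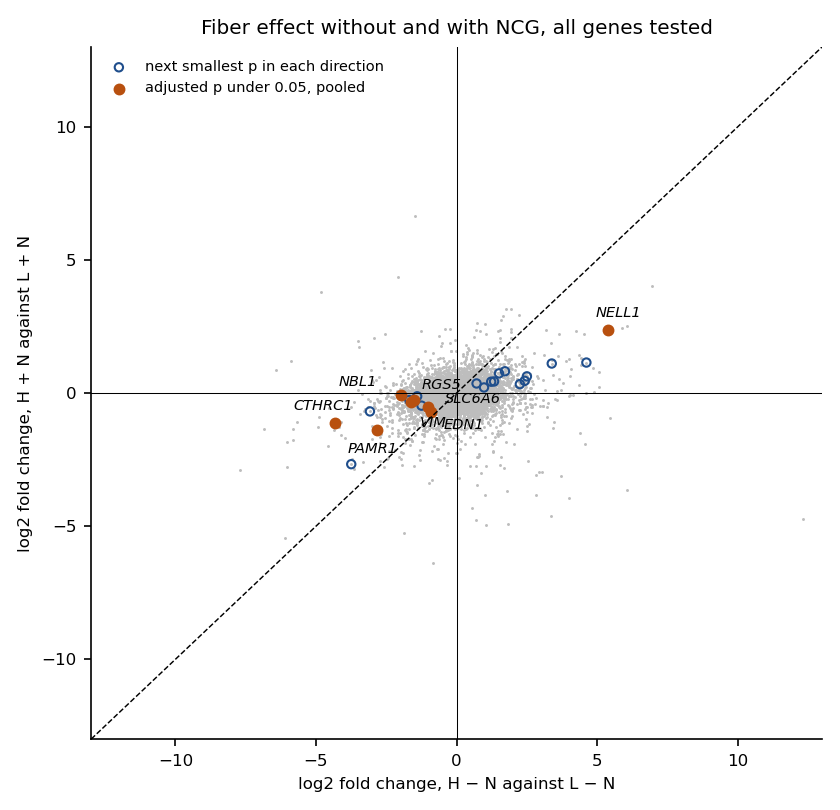
Log2 fold change of high against low fiber without NCG (horizontal axis) and with NCG (vertical axis) for all 15351 genes tested, with the 8 genes at an adjusted p-value under 0.05 filled and the next genes by p-value as open circles. The dashed line marks equal effects, and all 8 filled genes have the same sign on both axes and a larger absolute change without NCG.

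The 3 H − N libraries did not overlap the 3 L − N libraries in 3902 genes (25.4%), and the 3 H + N libraries did not overlap the 3 L + N libraries in 1681 genes (11%). Separation of 3 against 3 libraries is frequent without any effect, so these are not counts of genes changed by fiber. In 316 genes (2.06%) both pairs of groups were separated in the same direction, and in 148 (0.964%) in opposite directions. Taking both NCG levels together, the 6 high-fiber libraries lay above the 6 low-fiber libraries in 74 genes (0.482%) and below them in 62 (0.404%), 136 in all (0.886%).

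Among the genes that came next by p-value, which had adjusted p-values between 0.0520 and 0.0576 and did not pass the test, NTRK2 had the smallest p-value on the higher side. NTRK2, the receptor of brain-derived neurotrophic factor, was 36.5, 32.9 and 34.3 CPM in L − N, 49.2, 47.8 and 53.6 CPM in L + N, 160, 117 and 64.8 CPM in H − N and 111, 68.0 and 86.9 CPM in H + N. The sides of NTRK2 did not overlap, at a log2 fold change of 1.27 ± 0.192 (SE, n = 6 against 6, adjusted p = 0.0520, edgeR). SH3BGRL2 also did not overlap, at a log2 fold change of 0.83 with 101 to 212 CPM on the low-fiber and 238 to 361 CPM on the high-fiber side.

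LGR5, the R-spondin receptor that amplifies Wnt signaling in epithelial progenitors, had a log2 fold change of 2.88 ± 0.486 (SE, n = 6 against 6, adjusted p = 0.0576, edgeR). It was 0.955, 2.01 and 1.28 CPM in L − N, 23.1, 11.5 and 29.4 CPM in L + N, 48.1, 37.3 and 19.2 CPM in H − N and 66.0, 8.96 and 66.9 CPM in H + N. L − N lay below all the other groups, while L + N lay within the range of the high-fiber libraries, and the log2 fold change was 4.62 without and 1.15 with NCG. LGR5 overlaps TSPAN8 on the opposite strand.

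The same order, with L − N lowest and L + N within or near the high-fiber libraries, was seen in PALM3 (log2 fold change 1.44, from 2.36 to 3.26 CPM in L − N and 11.5 to 12.8 CPM in L + N) and in ARID3C (1.29). LGI2 (2.25), a secreted synaptic protein, and PDZK1 (1.13), a scaffold of epithelial transporters, lay higher in all high-fiber than in all low-fiber libraries. RAPGEFL1, NME7 and PARP1, the DNA repair enzyme, had log2 fold changes of 1.56, 0.88 and 0.54 with overlapping sides.

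On the lower side, RGS2, a regulator of G-protein signaling in smooth muscle, had a log2 fold change of -0.86 and was 81.9 to 164 CPM on the low-fiber and 50.5 to 81.2 CPM on the high-fiber side. TP53INP2 (-0.97), an autophagy factor, PLEKHO1 (-0.76) and HAPLN4 (-1.89), which overlaps TM6SF2, had overlapping sides. DEFB128, a beta-defensin, had a log2 fold change of -3.21 at low levels, 1.11 to 13.6 CPM on the low-fiber side and 0.163 to 0.897 CPM on the high-fiber side, where the lowest library held 3 reads. Of the separated genes with the largest log2 fold changes that were not named before, PON3 (2.64), an antioxidant lactonase, GRM7 (1.87) and PRMT8 (1.86) were higher and TRPM1 (-2.82), DUSP13 (-2.30) and MYO3B (-2.16) lower, all with adjusted p-values from 0.0593 to 0.0900 in edgeR.

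**Figure D3:**
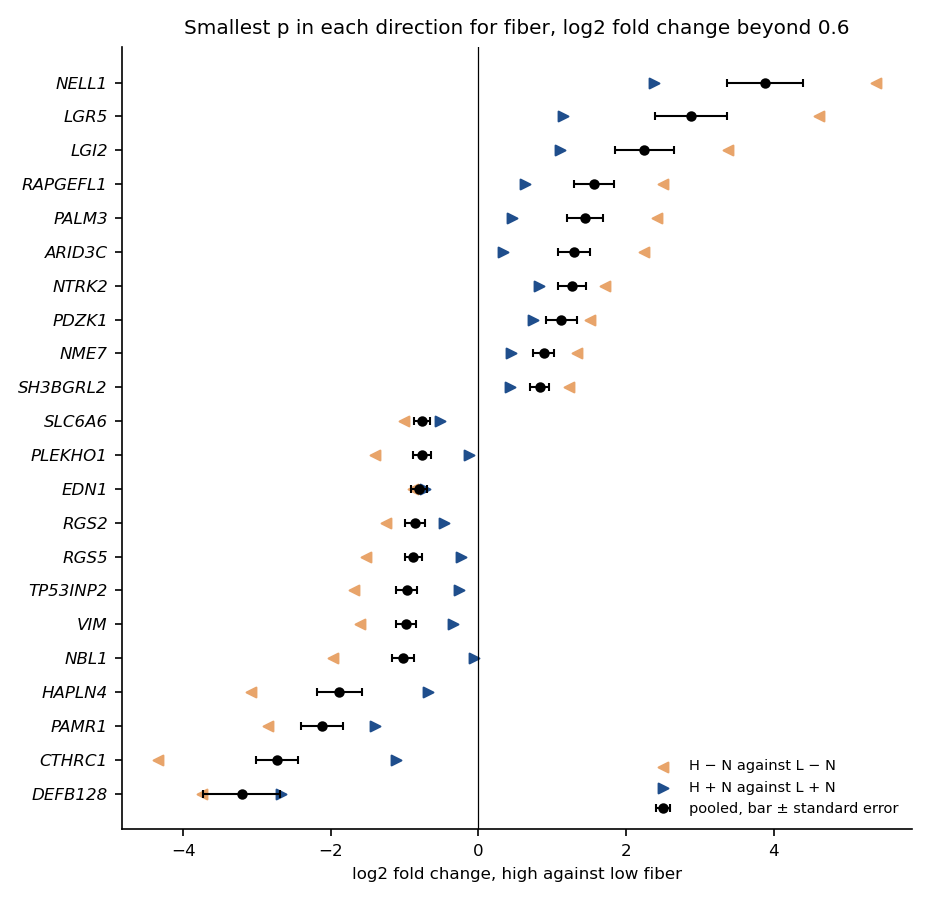
Pooled log2 fold change of high against low fiber for those of the 12 genes in each direction with the smallest p-value whose log2 fold change was beyond 0.6, with the standard error as a bar and the values without and with NCG beside it. The value without NCG is farther from 0 than the value with NCG in each gene drawn.

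The lists of genes below were described by their counts and medians, beside the same over all tested genes, where the median log2 fold change was 0.02 and 9.3% were higher and 10.2% lower at an unadjusted p-value under 0.05. None of the list members passed the adjusted p-value except CTHRC1, NBL1 and VIM, and all other members are given as values.

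Cholesterol synthesis genes lay higher on the high-fiber diets in 23 of 24 tested members, with a median log2 fold change of 0.60. At an unadjusted p-value under 0.05, 12 were higher and 1, TM7SF2, was lower. FDPS, which makes farnesyl pyrophosphate, was 31.7, 30.2 and 25.9 CPM in L − N, 33.4, 62.4 and 50.4 CPM in L + N, 133, 91.0 and 109 CPM in H − N and 77.8, 32.5 and 104 CPM in H + N (log2 fold change 1.24, adjusted p = 0.0678, edgeR). All H − N libraries lay above all low-fiber libraries, while H + N replicate 2 lay within the low-fiber range.

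The summed level of the cholesterol synthesis list was 555 to 719 CPM in the low-fiber libraries. It was 1286, 730 and 2027 CPM in H − N and 640, 655 and 1216 CPM in H + N. The list's median was 0.99 without NCG and 0.22 with it, and it was 0.42 to 0.74 when 1 library at a time was left out.

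Cholesterol export and bile acid sensing genes had a median of -0.59, with all 12 tested members lower and 7 of them at an unadjusted p-value under 0.05. NPC2, which moves cholesterol out of lysosomes, was 376, 612 and 731 CPM in L − N, 239, 252 and 182 CPM in L + N, 129, 181 and 152 CPM in H − N and 189, 263 and 175 CPM in H + N, a log2 fold change of -1.0 (adjusted p = 0.0576, edgeR). ABCG1 (-0.54) and ABCA1 (-0.64), the exporters to lipoproteins, and their regulator NR1H3 (-0.31), which overlaps MADD and ACP2, had smaller values. The list's median was -0.87 without NCG and -0.07 with NCG.

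**Figure D4:**
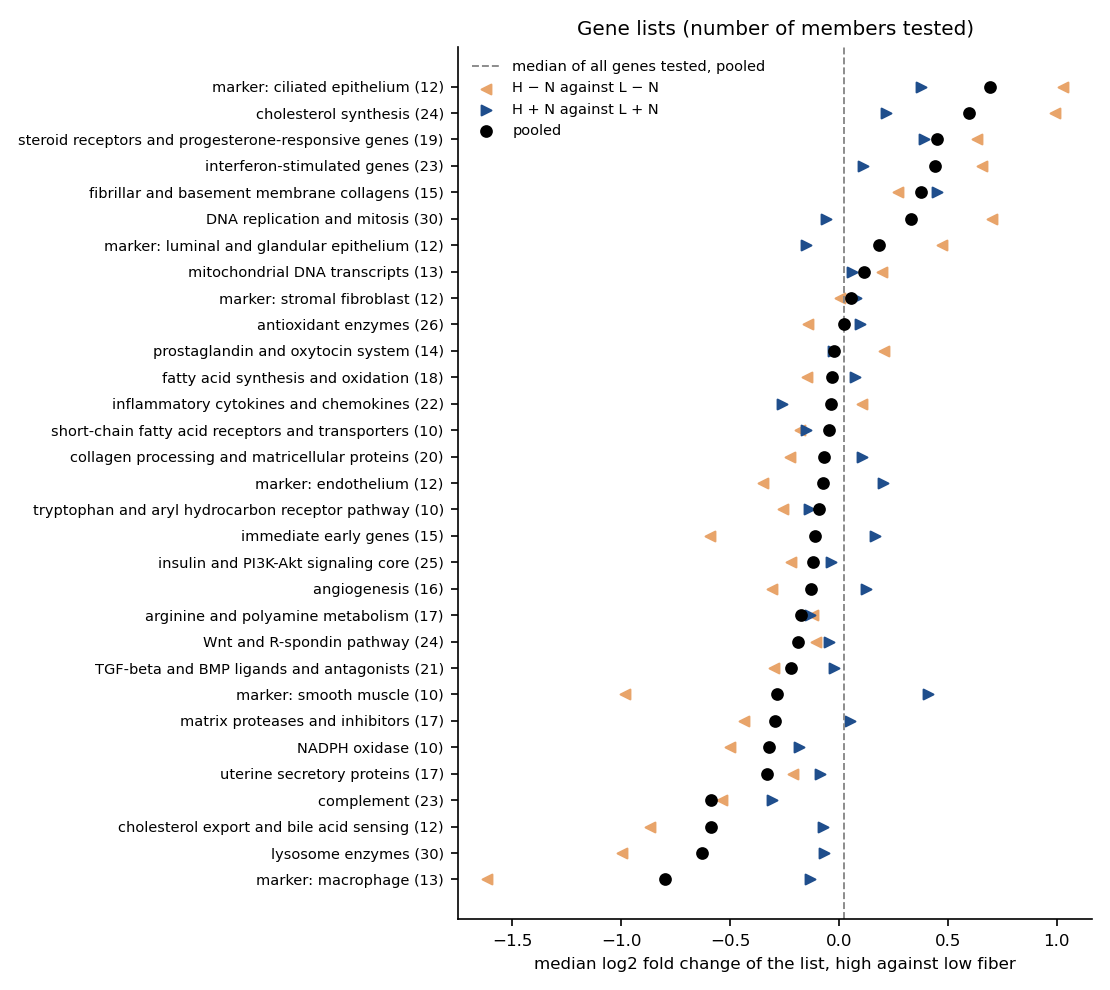
Median log2 fold change of high against low fiber for the 25 pathway lists and 6 of the 11 marker lists, pooled (circle), without NCG (left-pointing triangle) and with NCG (right-pointing triangle), with the number of members tested in brackets and a dashed line at the median of all tested genes. Among the lists drawn, ciliated epithelium and cholesterol synthesis lie farthest above the line, and macrophage markers and lysosome enzymes farthest below it. With NCG the medians were 0.38 for ciliated epithelium, 0.22 for cholesterol synthesis, -0.13 for macrophage markers and -0.07 for lysosome enzymes. Of the lists not drawn, erythrocyte markers (3 tested) had medians of -0.78 pooled, -3.48 without NCG and 1.94 with NCG. Neutrophil markers (7 tested) had -0.51, 1.57 and -3.84 in the same order.

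Lysosome enzymes had a median of -0.63 over 30 tested members, of which 29 were lower and 22 had an unadjusted p-value under 0.05. CTSD, the main aspartic protease of lysosomes, was 337, 1345 and 966 CPM in L − N, 724, 335 and 562 CPM in L + N, 287, 352 and 191 CPM in H − N and 421, 383 and 285 CPM in H + N, a log2 fold change of -1.12 with overlapping sides. LAMP1, a membrane protein of lysosomes, had a log2 fold change of -0.46. The median was -1.0 without NCG and -0.07 with NCG.

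Macrophage markers lay in the same direction as these lists. All 13 tested markers were lower, 12 with an unadjusted p-value under 0.05, with a median of -0.80, which was -1.62 without NCG and -0.13 with NCG. CD163, the scavenger receptor of tissue macrophages, was 186, 690 and 692 CPM in L − N, 169, 230 and 127 CPM in L + N, 142, 139 and 106 CPM in H − N and 146, 197 and 138 CPM in H + N. CSF1R, the receptor on which macrophages depend, had a log2 fold change of -0.99, and no marker of the list was at 0 in every library. The summed level was 1586 to 5644 CPM in L − N, 1291 to 2104 CPM in L + N, 789 to 1128 CPM in H − N and 1204 to 1715 CPM in H + N, and that of the lysosome list was 9342 to 23760, 7848 to 9029, 6067 to 7761 and 7084 to 8979 CPM in the same order. L − N replicates 2 and 3 held the high values of both, while L − N replicate 1, at 1586 and 9342 CPM, lay near the L + N libraries. Without the genes that are also macrophage markers, the lysosome median was -0.60 over 29 members. The part of macrophages in the values of lysosome and cholesterol export genes was not tested.

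Complement genes had a median of -0.59 over 23 tested members, 19 of them lower and 11 at an unadjusted p-value under 0.05. C1QA and C1QC, subunits of C1q that macrophages make, had log2 fold changes of -0.98 and -0.92, and CFD, the protease of the alternative pathway, of -0.87. The list's median was -0.54 without NCG and -0.31 with NCG. With the macrophage markers left out, the median was -0.43 over 20 members. For these 20 it was -0.28 without NCG and -0.42 with NCG. NADPH oxidase genes had a median of -0.32 over 10 members, with NOX4 at -1.0 (adjusted p = 0.0576, edgeR). NOX4 was 50.7, 54.1 and 51.8 CPM in L − N, 36.6, 30.6 and 30.1 CPM in L + N, 11.5, 18.9 and 14.8 CPM in H − N and 39.9, 25.9 and 18.8 CPM in H + N, and H + N overlapped L + N.

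**Figure D5:**
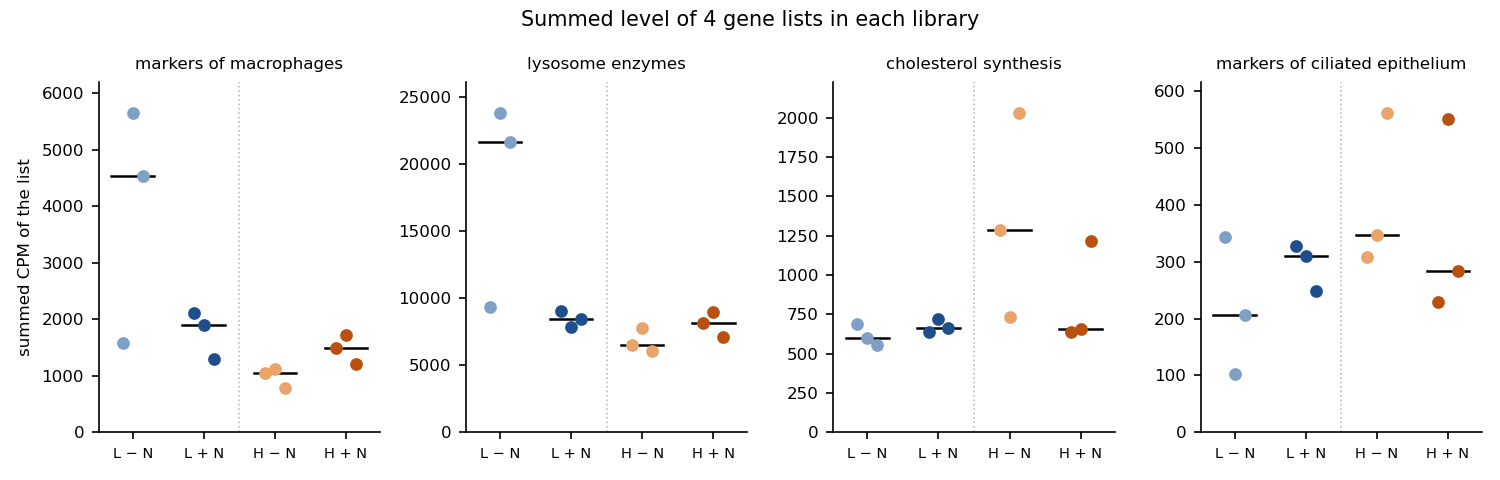
Summed CPM of 4 gene and marker lists, with 1 point per library, the 4 groups side by side, a bar at the median of each group and axes that start at 0. L − N replicates 2 and 3 hold the highest macrophage and lysosome sums, and the high-fiber libraries spread from 640 to 2027 CPM in the cholesterol synthesis sum.

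Steroid receptors and progesterone-responsive genes had a median of 0.45 over 19 tested members, with 9 higher and 2 lower at an unadjusted p-value under 0.05. ESR1, an estrogen receptor, was 523, 417 and 410 CPM in L − N, 770, 855 and 1003 CPM in L + N, 939, 926 and 567 CPM in H − N and 1060, 866 and 1281 CPM in H + N, a log2 fold change of 0.57 (adjusted p = 0.0998, edgeR). L − N lay below the other groups, and L + N lay within the high-fiber range. Trophoblast and fetal membrane markers were also lowest in L − N, with sums of 149 to 156 CPM in L − N, 196 to 247 CPM in L + N, 177 to 258 CPM in H − N and 205 to 249 CPM in H + N. Of 6 tested markers 3 were higher and 1 was lower at an unadjusted p-value under 0.05, with a median of 0.48, while the trophoblast genes CDX2 and PAG6 were at 0 in every library. The part of these cells in the steroid values was not tested. PGR, the progesterone receptor that holds the uterus quiescent, had a log2 fold change of 0.69. FKBP5, a chaperone induced by progesterone and glucocorticoids, had the opposite sign at -0.39. OXTR, the oxytocin receptor, which belongs to another list, was 175, 239 and 185 CPM in L − N, 125, 243 and 195 CPM in L + N, 92.1, 104 and 50.3 CPM in H − N and 173, 132 and 54.9 CPM in H + N, a log2 fold change of -0.96. The list that holds OXTR, of the prostaglandin and oxytocin system, had a median of -0.03 over 14 tested members, 7 higher and 7 lower. At an unadjusted p-value under 0.05 in edgeR, 1 of them was higher and 1 lower. With 1 library left out, the median of that list ran from -0.06 to 0.19. The median of the steroid list was 0.63 without NCG and 0.39 with it.

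Collagens had a median of 0.38 over 15 tested members, 14 of them higher and 5 at an unadjusted p-value under 0.05, with 0.27 without and 0.45 with NCG. COL1A1, COL3A1 and COL15A1 had log2 fold changes of 0.77, 0.70 and 0.94. COL3A1 ranged from 9653 to 19210 CPM in the low-fiber and from 14636 to 30248 CPM in the high-fiber libraries, and its highest value was in H − N replicate 3, without which the list's median was 0.22. The median was 0.25 without L + N replicate 1 and 0.23 without H + N replicate 3. Matrix proteins outside the collagens had mixed signs. POSTN and LOXL2 had log2 fold changes of -1.29 and -1.0. Of 17 proteases and inhibitors, 1 was higher and 5 were lower at an unadjusted p-value under 0.05. MMP7, MMP11 and MMP2 had -1.92, -0.82 and -0.48, while the procollagen peptidase ADAMTS2 had 0.71 and the inhibitor TIMP1, which overlaps SYN1, had 0.72. Of all 17, 7 lay higher and 10 lower. The other MMP genes lay on both sides, from -0.99 for MMP13 to 1.68 for MMP1, neither at an unadjusted p-value under 0.05 in edgeR. The median of these 17 was -0.29, and it was -0.15 without L − N replicate 1 and -0.58 without H − N replicate 3. It was -0.44 without NCG and 0.05 with NCG. The summed level was 8880 to 14267 CPM in L − N and 5595 to 7117 CPM in L + N, the latter within the 4565 to 7642 CPM of the high-fiber libraries.

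Ciliated epithelium markers were higher in 12 of 12 tested members, with a median of 0.69 and 5 at an unadjusted p-value under 0.05. DNAI1, a dynein of motile cilia that overlaps ENHO, was 2.63 to 9.56 CPM in the low-fiber and 6.68 to 22.1 CPM in the high-fiber libraries. The list's median was 1.03 without NCG and 0.38 with it. The summed level was 103 to 342 CPM in low-fiber and 229 to 560 CPM in high-fiber libraries, with the highest values in H − N replicate 3 and H + N replicate 2, without which the median was 0.43 and 0.40. The sums were 103 to 342 CPM in L − N and 309 to 560 CPM in H − N. With NCG they were 248 to 327 CPM in L + N and 229 to 551 CPM in H + N. The median sum was lower in H + N, at 284 CPM, than in L + N, at 309 CPM. Luminal and glandular epithelium markers had a median of 0.18, with 0.47 without and -0.15 with NCG, and it was 0.07 to 0.30 when 1 library at a time was left out.

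Arginine and polyamine genes, which bear on the action of NCG, went in both directions. CPS1, NAGS and OTC, which are listed with them, reached at most 9, 3 and 2 reads in any library and were not tested. The step of the urea cycle on which NCG acts was therefore not followed by these values. ASL, which releases arginine from argininosuccinate, was 16.2, 19.9 and 19.5 CPM in L − N, 12.5, 13.3 and 10.5 CPM in L + N, 8.60, 9.71 and 8.69 CPM in H − N and 9.16, 10.5 and 7.97 CPM in H + N (log2 fold change -0.72, adjusted p = 0.0576, edgeR). SLC7A7, an exporter of basic amino acids that overlaps OXA1L, had a log2 fold change of -0.74 and ODC1, the first enzyme of polyamine synthesis, of 0.32. Over 17 tested members the median was -0.17, with 4 higher and 5 lower at an unadjusted p-value under 0.05. The sign of that median turned when L − N replicate 1 was left out, at 0.08, and the range over the libraries was -0.21 to 0.08.

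Of the Wnt and R-spondin pathway, 24 members were tested, of which 4 were higher and 3 lower at an unadjusted p-value under 0.05. The median was -0.19, and it turned to 0.07 when L − N replicate 1 was left out, -0.29 being the lowest value with any library left out. FZD1, a Wnt receptor that overlaps MTERF1, lay higher in all high-fiber (101 to 151 CPM) than in all low-fiber libraries (51.1 to 100 CPM), with nearly equal log2 fold changes of 0.80 without and 0.83 with NCG (pooled 0.81, adjusted p = 0.0678, edgeR). AXIN2, a target of Wnt signaling that overlaps CEP112, had 0.86. SFRP4, a secreted Wnt antagonist, and RSPO1, an R-spondin ligand, lay lower in all high-fiber than in all low-fiber libraries, with log2 fold changes of -1.26 (adjusted p = 0.0678, edgeR) and -1.03 (adjusted p = 0.0711, edgeR). Insulin and PI3K-Akt signaling genes had a median of -0.12 over 25 members (-0.07 without L − N replicate 2), with 1 higher and 7 lower at an unadjusted p-value under 0.05. PIK3R1, the regulatory subunit of PI3K, had a log2 fold change of 0.66 and DDIT4, an inhibitor of mTORC1, of -0.44, while AKT1 was 104 to 158 CPM in low-fiber and 96.6 to 133 CPM in high-fiber libraries (-0.12).

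Short-chain fatty acid receptors and transporters had 0 of 10 tested members at an unadjusted p-value under 0.05 in edgeR, with a median of -0.05 that ran from -0.29 to 0.01 with 1 library left out. Of the 14 genes listed, 12 were measured. The receptor FFAR3 and the transporter SLC5A12 reached at most 3 and 2 reads in any library and were not tested. Antioxidant enzymes had a median of 0.02 over 26 members, and -0.02 to 0.05 with 1 library left out, with 2 higher and 3 lower at an unadjusted p-value under 0.05. HMOX1, the heme oxygenase, was 37.1 to 128 CPM in low-fiber and 14.9 to 39.3 CPM in high-fiber libraries, a log2 fold change of -1.35 (adjusted p = 0.0576, edgeR), and it is also a gene that macrophages express. GPX3 had -1.03, made of -2.06 without NCG and a value near 0 with it.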

How the data were processed

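Endometrial RNA of 12 libraries, 3 in each of 4 groups, was analysed. Groups and replicate numbers came from the deposited titles. Per the submitters' processing notes, reads were handled with fastp 0.22.0, HISAT2 2.1.0 and HTSeq 0.9.1 on Sscrofa11.1, and the counting strand was not given in the sources used here. The authors deposited a read count per gene, without normalization, and an FPKM made from the counts. All tests used the counts, and the FPKM served only for a check. Genes passed filterByExpr (15351 of 20674), and counts were scaled by TMM in edgeR 4.0.16 (R 4.3.3) and fitted by quasi-likelihood with 1 mean per group, a biological coefficient of variation of 0.269 and 8 residual degrees of freedom. CPM were computed with the TMM factors, and a prior count of 2 was added before taking log2. Alternatives used limma 3.58.1 and DESeq2 1.42.0. The method was tested on simulated data with equal fiber effects at both NCG levels and no outlying library. That test therefore does not bear on how the results depend on single libraries. Pairs of replicates differed by a chi-square of 23.5 to 101 per gene.

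The members and gene lists were chosen with earlier results of these data known. Named genes were those called, the 12 with the smallest p in each direction, the 5 separated genes with the largest change in each direction (with a symbol not starting with LOC and at least 1 CPM on the higher side), the key members of each list and the 2 members with the smallest p. Other list members named (TM7SF2, ADAMTS2, MMP1, MMP13, SFRP4, RSPO1, FFAR3, SLC5A12, CDX2, PAG6, CPS1, NAGS and OTC) were chosen after their values were seen. Promoter motifs were not analysed here, and some genes that the rule takes are not reported here.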

Additional observations from a re-analysis of the deposited data

Results flagged for a closer look

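In 82 sets of 6 libraries of 1 fiber level, the gap of the highest or lowest library to the nearest other, as a share of the range, was above Dixon's critical value in 6 sets, and chance flags about 1 in 20. Luminal and glandular epithelium markers summed to 1107 CPM in L − N replicate 3, against 1551 CPM in the nearest low-fiber library. PALM3 was 6.62 CPM in H − N replicate 3, against 14.3 CPM in the nearest high-fiber library. NME7 was 90.9 CPM in H + N replicate 2, against 153 CPM. TP53INP2 was 28.2 CPM in H − N replicate 1, against 40.6 CPM. Smooth muscle markers summed to 995 CPM in H − N replicate 1, against 1704 CPM. Neutrophil markers summed to 554 CPM in H − N replicate 3, against 27.5 CPM, and that library also held the highest sum of interferon-stimulated genes.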

How the results depend on the processing

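The pooled count of 4 differentially expressed genes was 290 with DESeq2, 302 with limma-voom and sample quality weights, 1 with limma-voom, 0 in the additive fit and 0 with fiber alone, and 8 by adjusted p-value alone. It was 4 with RLE size factors or a mean of at least 1 CPM, 5 without a filter, 3 with robust dispersions, and 5 with the newer quasi-likelihood dispersions, which were chosen after seeing the data. The planned legacy setting is the default and gave 4. Leaving out 1 library at a time gave 0 to 331 pooled, 0 to 1120 without NCG, 0 to 346 for the interaction and 0 with NCG. DESeq2 gave 913 without NCG, 2 with NCG and 184 for the interaction. The cause of these differences was not tested.

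Replicate numbers link no animals, and the deviations of same-numbered libraries correlated from -0.322 to 0.283 (18 pairs, 3 over 0.1). A replicate block gave 1 gene pooled, 254 without NCG, 0 with NCG and 0 for the interaction. Each of the 8 genes kept its sign in 23 other fits and passed the adjusted p-value in 8 (NBL1) to 15 (CTHRC1) of them. List medians moved by less than the within-group spread of replicates in all but 5 of 432 values with a library left out. Leaving out 1 library can hardly move a median that far, so this is no measure of stability. The interferon-stimulated median went from 0.44 to -0.14 without H − N replicate 3, and the Wnt and arginine medians changed sign without L − N replicate 1. Another scaling moved the share of higher genes at p under 0.05 from 47.7% to 43.9%.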

Other observations

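Interferon-stimulated genes had a pooled median log2 fold change of 0.44 over 23 tested members, 2 of them higher at an unadjusted p-value under 0.05. Their summed level was 859 to 2508 CPM on the low-fiber side and 1164 to 1965 CPM in 5 high-fiber libraries, with 5148 CPM in H − N replicate 3. Without that library the median was -0.14. OASL and OAS1, enzymes of the antiviral response, were 41.9 and 196 CPM in it, and OAS1 overlaps RPH3A.

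DNA replication and mitosis genes had a median of 0.33 over 30 members, with 0.70 without NCG and -0.06 with it, and the pooled median was 0.58 without L − N replicate 2. TOP2A, which untangles replicated DNA, was 12.3, 32.2 and 10.5 CPM in L − N, 92.9, 127 and 136 CPM in L + N, 38.5, 61.0 and 69.4 CPM in H − N and 94.9, 111 and 124 CPM in H + N. The L − N libraries were lowest, and both NCG groups lay above H − N. Smooth muscle markers had a median of -0.29, which was 0.06 without L − N replicate 1, the library with the highest sum, 5761 CPM.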
